A study of Mus musculus with 16 samples.

Results

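The integrin and laminin genes were examined in mammary tumors of *Resf1* gene trap mice and of their wildtype littermates. Members were all mouse genes with a symbol for an integrin α chain (*Itga*), an integrin β chain (*Itgb1* to *Itgb8*) or a laminin α, β or γ chain (*Lama*, *Lamb*, *Lamc*), whatever their values. The rule matched 37 genes, of which 36 were found among the 23609 gene IDs of the table, and *Lamc3* was not analysed here. All 36 passed the filter on low values, 18 integrin α, 8 integrin β and 10 laminin genes among 21034 tested genes.

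RNA-seq of total RNA was used to compare 5 of 8 labelled primary mammary tumors of wildtype MMTV-PyMT mice with 5 of 8 of MMTV-PyMT/*Resf1* +/- gene trap mice. Every animal of both groups carried the polyoma middle T antigen (PyMT), which the MMTV promoter drives in mammary epithelium. The gene trap is a lentiviral enhancer/gene trap insertion in the first exon of *Resf1*, in 1 copy, which expresses an EGFP-cre fusion from the locus and truncates the *Resf1* transcript in every cell type that uses the promoter. It came on a C57BL/6 background and was crossed with FVB MMTV-PyMT mice, whose F1 tumors were taken at the humane endpoint, and the age at that point is not given in the sources used here. Each tumor is a mixture of cancer cells, stroma, vessels and leukocytes, and in such bulk RNA fewer cells of a type and less RNA per cell cannot be told apart.

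Integrins are receptors made of 1 α and 1 β chain that hold cells to the extracellular matrix or to other cells. Laminins are trimers of 1 α, 1 β and 1 γ chain and are the main adhesive proteins of basement membranes. In the mammary gland, basal cells sit on laminins with the α3 chain through integrins α3β1 and α6β4, and the latter anchors hemidesmosomes. Leukocytes use the β2 and β7 integrins, and vessel walls are rich in laminins with the α4 or α5 chain. Accordingly 7 members were treated as basal epithelial chains (among them *Itga2*, *Itga3*, *Itga6*, *Itgb4*, *Lama3* and *Lamb3*), 8 as leukocyte chains (*Itgad*, *Itgae*, *Itgal*, *Itgam*, *Itgax*, *Itga4*, *Itgb2*, *Itgb7*) and 9 as vascular chains (*Itga1*, *Itga5*, *Itga7*, *Itga8*, *Itgb3*, *Lama4*, *Lama5*, *Lamb1*, *Lamc1*), with 12 other chains. These names mark a typical source and not an exclusive one. Luminal and PyMT tumor cells also express *Itga6* and *Itgb1*, and fibroblasts also express *Lama4*, *Lamb1* and *Lamc1*.

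Values are the deposited normalized values, which are not whole numbers, so the sequencing depth behind them is unknown. The columns summed to 31995078 at least and 42153593 at most. Luminal epithelial markers (*Krt8*, *Krt18*, *Krt19*, *Epcam*, *Cdh1*, *Elf5*) summed to 77623 to 105116, so epithelial genes were expressed in every tumor. No other tissue was compared. The targeted gene was examined first. *Resf1* had values of 4215, 4397, 3881, 4487 and 3517 in wildtype tumors 1 to 5 and of 4029, 3066, 3686, 3392 and 3409 in gene trap tumors 1 to 5. The groups overlapped, and the log2 fold change on the log2(value + 1) scale was -0.22 (SE 0.09; limma, unadjusted p = 0.0313, Benjamini-Hochberg adjusted p = 0.9997). The exact permutation p was 0.0635. Gene trap replicate 2 had the lowest *Resf1* value, and without it the log2 fold change was -0.17. The unadjusted limma p of *Resf1* was above 0.05 without that tumor, and also without gene trap replicate 4 or 5 or wildtype replicate 1, 2 or 4. It stayed under 0.05 without gene trap replicate 1 or 3 or wildtype replicate 3 or 5. With all 10 tumors it was above 0.05 without the variance trend, with each tumor weighted by its own spread, and with columns rescaled to the same total. Other pseudocounts, other filters, quantile normalization, a replicate block and a correction for exon length left it under 0.05. One tumor, gene trap replicate 2, differed from the rest. Its score on principal component 1 (31.1% of the variance) was 91.8, and those of the other 9 tumors were between -18.6 and -4.78. In it 863 genes were more than 2 fold below all other tumors, where other tumors had 8 to 40 such genes. It was kept, and the medians of the chain classes are also given without it.

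No integrin or laminin gene was called different between gene trap and wildtype tumors. Of 21034 tested genes 0 were called at an adjusted p under 0.05 (limma, percent called 0), 479 (2.28%) had an unadjusted p under 0.05, and 111 (0.528%) had groups that did not overlap. Of the 36 members, 0 passed any of these 3 criteria. Of the members, 30 were lower in gene trap tumors and 6 were higher, with a median log2 fold change of -0.07. Over all tested genes 48.6% were lower and the median was 0.005. Without gene trap replicate 2, 21 of 36 members were lower, with a median of -0.01, against 49.9% of all tested genes. With each tumor weighted by its own spread, 19 of 36 members were lower.

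The member log2 fold changes ran from -0.27 (*Itga2*) to 0.17 (*Lama5*). For 35 of 36 members the 95% interval of the log2 fold change lay within 2 fold in either direction, and for 27 it lay within 1.5 fold. The exception at 2 fold was *Itgb7*, the β chain of the gut-homing integrin α4β7, with an interval from -1.003 to 0.925. The plot of log2 fold changes by chain class shows these intervals side by side.

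**Figure D1:**
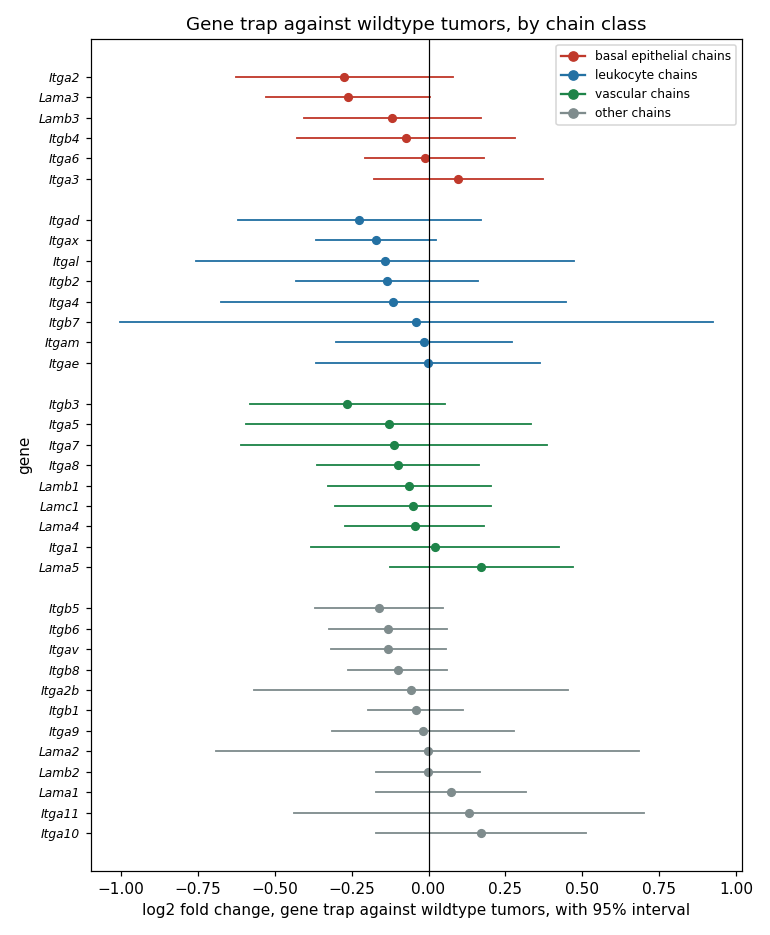
The log2 fold changes of 35 members on the x axis, gene trap against wildtype tumors, each with its 95% interval from limma (5 tumors in each group) as a line. Genes are grouped by chain class on the y axis. All 35 intervals drawn include 0, and 29 of the 35 points lie below 0.

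Expression levels were compared between genes per kb of exon. *Itgb1*, which pairs with most α chains, was highest at 3506 ± 192 per kb (SD, n = 10). *Itga6*, the laminin-binding α chain of luminal and basal cells, followed at 1685 ± 141, and *Itgb5*, which forms the vitronectin receptor αvβ5, at 956 ± 113. Tumor by tumor the ranges of these 3 did not overlap. *Lamb2*, a β chain of basement membrane laminins, was the highest laminin at 718 ± 51.7, and its range overlapped that of *Itgb5* and lay above that of *Lamc1* (505 ± 65.9), the γ chain of most laminins.

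Below *Lamc1*, every pair of neighbors in the order had ranges that overlapped, except *Itga10* and *Itgad* at the bottom. The basal chains other than *Itga6* lay between 396 per kb for *Itgb4*, the hemidesmosome β chain, and 40.3 for *Lama3*. The partners *Lamb3* and *Lama3* differed in level, with 307 per kb for *Lamb3* and 40.3 for *Lama3*, and their ranges did not overlap. The vascular chains lay between 505 for *Lamc1* and 14.3 for *Itga7*, the laminin receptor of smooth and skeletal muscle.

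The leukocyte chains had the lowest median level of the 4 classes. They were led by *Itgb2* at 161 ± 24.4 per kb, the common β chain of the leukocyte integrins. *Itgax* (CD11c, of dendritic cells and macrophages) at 117 and *Itgam* (CD11b, of myeloid cells) at 104 were higher than the chains typical of lymphocytes, *Itgb7* at 21.2, *Itgae* (CD103) at 20.9, *Itga4* at 17.9 and *Itgal* (CD11a) at 17.3. *Itgad*, a CD11 chain of some macrophages, was lowest of all members at 6.45.

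**Figure D2:**
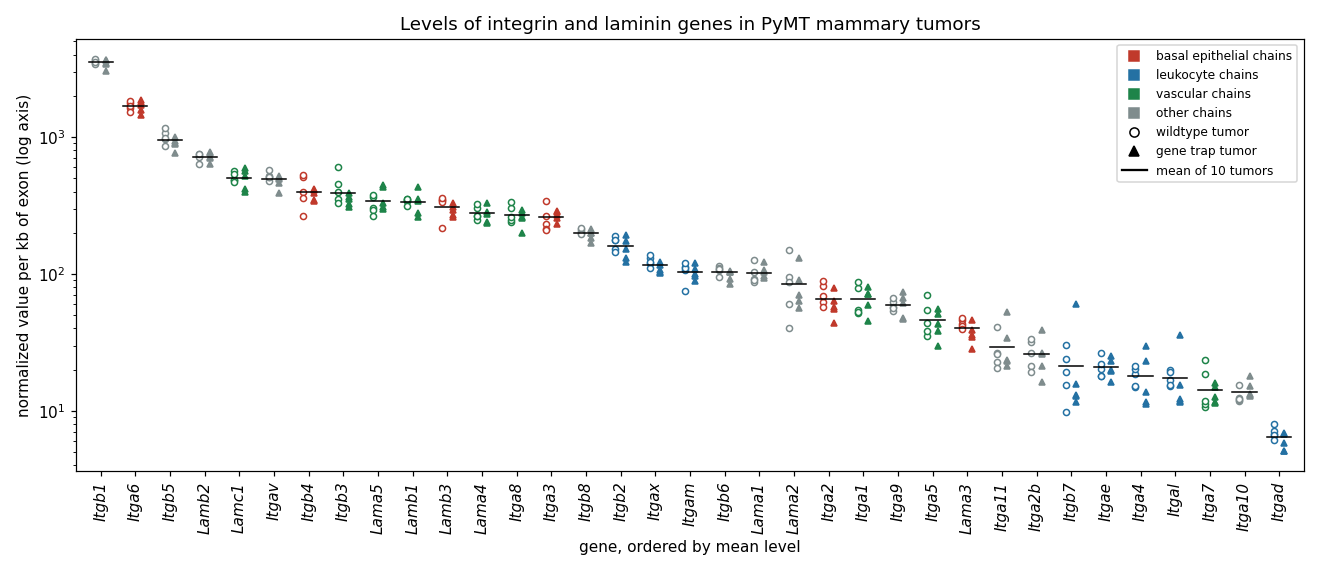
Normalized value per kb of exon on a log axis for 35 members, ordered by the mean of 10 tumors (black line), with open circles for wildtype and triangles for gene trap tumors, colored by chain class. *Itgb1* stands above all other members and *Itgad* below them, and leukocyte chains sit in the lower part of the order.

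For the basal epithelial chains the median log2 fold change was -0.09, and 6 of 7 were lower. The median was -0.22 without wildtype replicate 1, and it was -0.03 and -0.01 without wildtype replicates 2 and 4. It was -0.08, with 5 of 7 lower, without gene trap replicate 2. *Lama3*, the laminin α3 chain, had values of 493, 466, 448, 425 and 516 in wildtype tumors 1 to 5 and 492, 305, 417, 374 and 388 in gene trap tumors 1 to 5. The highest gene trap tumor, replicate 1, lay within the wildtype range, and the other 4 lay below all wildtype tumors. Its log2 fold change was -0.26 (SE 0.12; limma unadjusted p = 0.0539, adjusted p = 0.9997), the smallest p of any member. *Itga2*, the α chain of the collagen and laminin receptor α2β1, had values of 443, 412, 492, 579 and 638 in wildtype and 407, 315, 562, 396 and 449.5 in gene trap tumors, again with overlapping groups. Its log2 fold change was -0.27 (SE 0.16; limma unadjusted p = 0.116), the most negative of any member. Gene trap replicate 2 was lowest for both genes, and without it both log2 fold changes were -0.17.

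*Lamb3*, a partner of *Lama3*, had values of 1439, 2303, 2309, 2205 and 2373 in wildtype and 2046, 1728, 1788, 2182 and 1928 in gene trap tumors (log2 fold change -0.12, SE 0.13), and wildtype replicate 1 was far below the other 4 wildtype tumors. The hemidesmosome chain *Itgb4* had values of 1874, 3554, 2779, 3696 and 2502 in wildtype and 2377, 2721, 2938, 2436 and 2873 in gene trap tumors. The wildtype tumors held both its lowest and its highest value, with all gene trap tumors in between, and its log2 fold change was -0.07 (SE 0.16). *Itga6*, its partner, had a log2 fold change of -0.01 (SE 0.09), and *Itga3*, the α chain of the laminin receptor α3β1, was the only higher basal chain (0.10, SE 0.13).

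The markers of basal and myoepithelial cells had more negative log2 fold changes than these chains, a difference that was not tested. All 9 of 9 markers (*Krt5*, *Krt14*, *Krt17*, *Trp63*, *Acta2*, *Myh11*, *Cnn1*, *Mylk*, *Oxtr*) had lower means, with a median log2 fold change of -0.36, and -0.38 without gene trap replicate 2. All 9 were lower under each of the 20 alternatives tried. Some of these, such as other filters, no variance trend and the replicate block, cannot change a log2 fold change. Others each leave out a single tumor and share the rest. Their summed value was 8330 to 11448 in wildtype and 6112 to 8569 in gene trap tumors. None was called after adjustment, and 2 of 9 had an unadjusted limma p under 0.05 (background 2.28%). *Krt17*, a basal keratin, had a log2 fold change of -0.63 (SE 0.23; limma p = 0.0174, exact permutation p = 0.0714). *Myh11*, smooth muscle myosin, had one of -0.67 (SE 0.25; limma p = 0.0186, exact permutation p = 0.0635). *Acta2*, *Myh11*, *Cnn1* and *Mylk* are also expressed by vessel smooth muscle, and its part in their values was not tested. The 6 mural markers, which include none of these genes, stood at a median of 0.07. With single tumors left out this median ran from -0.03 (without wildtype replicate 4) to 0.16 (without gene trap replicate 2). The 6 luminal markers stood at 0.01 (-0.11 to 0.04). The part of the basal cell markers in the values of the basal chains was not tested. The plot of chains beside cell type markers shows both lists.

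**Figure D3:**
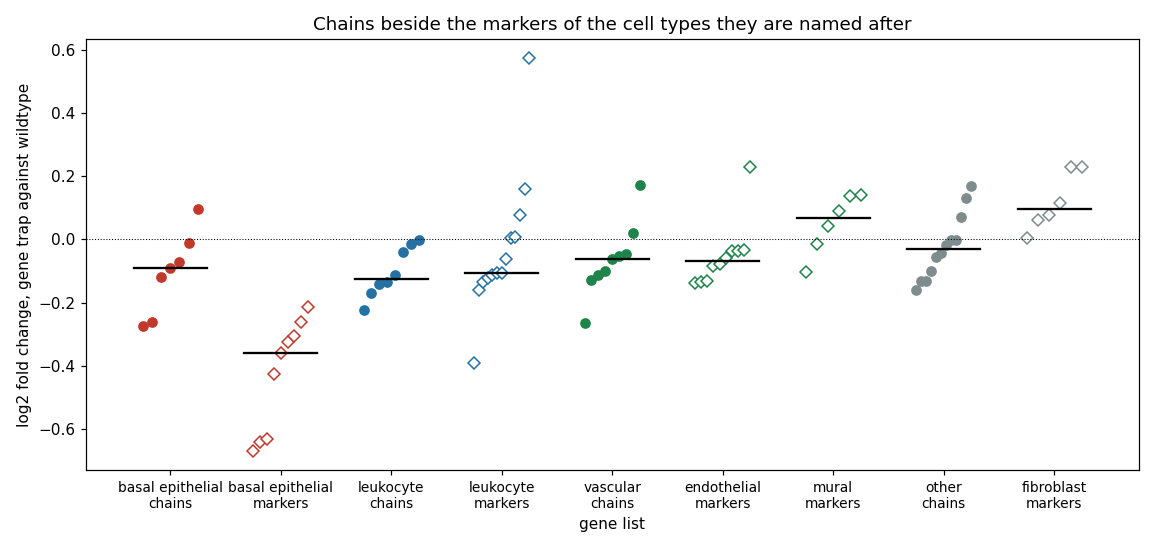
The log2 fold change of each gene on the y axis, gene trap against wildtype tumors, for the 4 chain classes (filled circles) and for markers of 5 cell types (open diamonds), with the median of each list as a black line. The basal epithelial markers lie between -0.67 and -0.21, below the median of the basal chains at -0.09.

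For the leukocyte chains the median log2 fold change was -0.12, with 8 of 8 lower. Without gene trap replicate 2 the median was -0.04, with 6 of 8 lower, and without gene trap replicates 4 and 5 it was -0.01 and -0.04, with 4 and 5 of 8 lower. Without wildtype replicate 3 or 5 it was -0.08 in both cases, with 6 of 8 lower. The median was more negative, at -0.25, without gene trap replicate 3, with 7 of 8 lower. It was -0.16 without gene trap replicate 1 or wildtype replicate 2 and -0.15 without wildtype replicate 4, with 7 of 8 lower in each. With weights per tumor 4 of 8 were lower. *Itgax* had values of 574, 531, 631, 662 and 585 in wildtype and 586, 516, 559, 499 and 489.9 in gene trap tumors. Gene trap replicates 2, 4 and 5 lay below all wildtype tumors and replicates 1 and 3 within their range, with a log2 fold change of -0.17 (SE 0.09; limma unadjusted p = 0.0808). *Itgb2* had values of 468, 441, 538, 575 and 543 in wildtype and 529.7, 468, 592, 401 and 371 in gene trap tumors. Gene trap replicate 3 was the highest and replicate 5 the lowest of all 10 tumors (log2 fold change -0.13, SE 0.14).

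The lymphocyte chains stood out in 1 tumor. *Itgal*, the α chain of LFA-1, had values of 131, 109.8, 127, 99.2 and 102 in wildtype and 101, 75.7, 236, 79.6 and 78.0 in gene trap tumors. *Itgb7* had values of 83.5, 42.7, 66.7, 27.2 and 53.5 in wildtype and 43.3, 32.2, 167, 36.0 and 35.6 in gene trap tumors. *Itga4*, which pairs with *Itgb7* or *Itgb1*, had values of 259.6, 209, 284, 212 and 296 in wildtype and 322, 191, 413, 158 and 161 in gene trap tumors. All 3 were highest in gene trap replicate 3. The T cell genes *Cd3e*, *Cd3g*, *Cd4* and *Cd8a* were also highest in that tumor, with 32.5, 70.2, 140.4 and 124, where the other 9 tumors reached at most 21.8, 61.3, 84.8 and 66.9. Their part in the values of the integrin chains was not tested.

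*Itgb7* had the widest spread of all members, with an SD of 0.77 on the log2 scale over the 10 tumors and a 6.16 fold range. Without gene trap replicate 3 its log2 fold change went from -0.04 to -0.47 and that of *Itgal* from -0.14 to -0.44. *Itgae*, the partner of *Itgb7* on intraepithelial T cells, did not stand out in that tumor, with a value of 89.8, where all tumors lay between 75.0 and 121. The myeloid chains *Itgam* (-0.01, SE 0.13) and *Itgad* (-0.22, SE 0.18) stayed within a 1.58 fold range. Of 15 leukocyte markers, 13 were measured, with a median log2 fold change of -0.11 and 8 of 13 lower. That median was 0.05 without wildtype replicate 1 and 0.02 without gene trap replicate 4, with 6 of 13 lower in both, and -0.06 without gene trap replicate 2. It was -0.18 without wildtype replicate 2, with 10 of 13 lower. Their summed value was 10834 to 17149.8 in wildtype and 11329 to 16529.7 in gene trap tumors.

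Sequence near the starts of the myeloid chains is shown because *Itgam*, *Itgax* and *Itgad* lie next to each other in the genome and include the highest and the lowest α chains of the class. A RefSeq promoter window (GRCm38.p6, 250 bases before to 50 after the start) was found for 23 of 36 members. In the 250 bases before the start, GAGGAA was searched on both strands, as the core of sites for ETS factors such as PU.1, and TGANTCA, the AP-1 site. Windows of 30 bases around each match in *Itgam* and *Itgax* are given 5′ to 3′ on the gene's strand, with the motif in capitals (TTCCTC is GAGGAA on the other strand).
Itgam, chr7:128062544-128062573, plus strand: tgttttctcccgGAGGAAggctacagaggg
Itgam, chr7:128062610-128062639, plus strand: gtctctcatagctttTTCCTCatacttctc
Itgax, chr7:128129483-128129512, plus strand: cccacctcctcTGAGTCAcgctgacaactt
The matches lay 84 and 15 bases before the start of *Itgam* and 56 bases before that of *Itgax*. The 23 members have 26 promoter windows. GAGGAA was found in 13 of these 26 windows (50%), 1 for each of 13 members of which 12 are outside the leukocyte class, and in 23.3% of all 32851 promoter windows. TGANTCA was found in 1 of the 26 (3.85%) and in 6.75% of all windows. The letters describe these windows only, and no test of them was made.

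For the vascular chains the median log2 fold change was -0.06 (7 of 9 lower), and without gene trap replicate 2 it was 0.004 (4 of 9 lower). It was -0.03 (5 of 9 lower) without wildtype replicate 5 and -0.0027 (6 of 9 lower) without gene trap replicate 5, and with weights per tumor 3 of 9 were lower. The median of these chains was -0.13 (8 of 9 lower) without gene trap replicate 1. The 10 endothelial markers had a median of -0.07 (9 of 10 lower), which was 0.03 (3 of 10 lower) without gene trap replicate 2 and 0.04 (4 of 10 lower) without wildtype replicate 5. Without wildtype replicate 4 the median of these markers was -0.18 (9 of 10 lower). Their part in the values of the vascular chains was not tested. *Itgb3*, the β chain of αvβ3 and of the platelet fibrinogen receptor, had values of 2070.0, 1940.2, 2688, 3553 and 2338 in wildtype and 1926, 2161, 2085, 1811 and 2286 in gene trap tumors. Wildtype replicate 4 was the highest of all tumors and the groups overlapped (log2 fold change -0.26, SE 0.14; limma unadjusted p = 0.0942). In that tumor the endothelial markers summed to 3590 and the mural markers to 4951, the lowest sums of any wildtype tumor. *Itgb3* thus did not follow the vascular markers in that tumor, and its cell source was not tested. *Lama5*, the α5 laminin chain, was the most positive member, with 3454, 4143, 3346, 4306 and 3020.3 in wildtype and 3413, 3531, 3738, 5069 and 4948 in gene trap tumors. Its gene trap replicates 4 and 5 lay above every other tumor, while replicates 1 to 3 lay within the wildtype range (0.17, SE 0.14; limma unadjusted p = 0.233). *Lama5* is also made by epithelium.

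The chains of the α4 laminin of vessels (*Lama4*, *Lamb1*, *Lamc1*) varied less. *Lama4* had values of 3677, 2982, 3205, 3219 and 3888 in wildtype and 3954, 2858, 3337, 3444 and 2894 in gene trap tumors. *Lamb1* had values of 3444, 3369.9, 3135, 3503 and 3516 in wildtype and 4305, 2570.3, 3516, 3371 and 2756 in gene trap tumors. *Lamc1* had values of 4027, 4049.9, 3870.0, 4713 and 4479 in wildtype and 4944, 3432, 4659, 4286 and 3294 in gene trap tumors. All 3 were highest in gene trap replicate 1 and were lowest in gene trap replicates 2 and 5, so that the gene trap group held both ends of the range. Their log2 fold changes were -0.05 (SE 0.10), -0.06 (SE 0.12) and -0.05 (SE 0.12), and 0.0037, 0.02 and 0.01 without gene trap replicate 2. In gene trap replicate 1 the 6 fibroblast markers also had their highest summed value, 120046, against 39061 to 83926 in the other 9 tumors, and the 10 endothelial markers reached 5734 in it, within the range of 3373 to 6269 over all tumors. The part of either cell type in these values was not tested.

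The integrin α chains of vessel walls, apart from *Itga8*, had wider spreads than *Lama4*, *Lamb1* and *Lamc1*. The SD on the log2 scale was 0.206 for *Itga8* and 0.205 for *Lamb1*. *Itga1* (a collagen and laminin receptor of smooth muscle), *Itga5* (the fibronectin receptor) and *Itga8* (a receptor of mesenchymal and mural cells) were lowest in gene trap replicate 2, with log2 fold changes of 0.02 (SE 0.19), -0.13 (SE 0.21) and -0.10 (SE 0.12), and 0.15, -0.0024 and -0.01 without that tumor. *Itga7* was highest in wildtype replicate 5, at 189.6 against 86.3 to 150.4 in the other tumors. In the same tumor the 4 measured skeletal muscle markers summed to 10218, where the other tumors had 673 to 4745. Their part in the value of *Itga7* was not tested.

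Of the 12 other chains, 9 were lower and 3 higher, with a median log2 fold change of -0.03. Without gene trap replicate 2 the median was -0.02, with 6 of 12 lower, without wildtype replicate 1 it was 0.0029, with 5 of 12 lower, and without wildtype replicate 4 it was -0.0024, with 6 of 12 lower. It was -0.07 without gene trap replicate 1 (9 of 12 lower) and without wildtype replicate 2 (8 of 12 lower). *Itgb1* had values of 14074, 14850.1, 14001, 15295 and 14323 in wildtype and 14819.8, 12468, 14060.3, 14277 and 14929 in gene trap tumors. It had the smallest spread of all members, with an SD of 0.08 on the log2 scale, where the median over all tested genes was 0.251 and over the members 0.219. Its log2 fold change was -0.04 (SE 0.07). *Itgav*, the αv chain, stood at -0.13 (SE 0.09). Of the β chains that pair with it, *Itgb5* stood at -0.16 (SE 0.10), *Itgb6* at -0.13 (SE 0.09) and *Itgb8* at -0.10 (SE 0.07), beside *Itgb3* at -0.26 and *Itgb1* at -0.04. *Itgav*, *Itgb5* and *Itgb6* were lowest in gene trap replicate 2, and without it they stood at -0.06, -0.10 and -0.08.

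*Lama2*, the α chain of muscle and mesenchymal laminins, had values of 1551, 984, 1434, 661 and 2427 in wildtype and 2124, 1040.1, 1150.0, 1483 and 924 in gene trap tumors. Both ends of its 3.67 fold range were wildtype tumors, and its log2 fold change was -0.0025 (SE 0.32). *Itga11*, a collagen receptor of fibroblasts, was highest in gene trap replicate 1, at 271 against 105 to 209 in the other tumors (0.13, SE 0.26). *Itga10*, a collagen receptor of cartilage and mesenchyme (0.17, SE 0.16), and *Lama1*, an α chain of early basement membranes (0.07, SE 0.11), were the other higher members. *Lamb2* (-0.0014, SE 0.08), *Itga9* (-0.02, SE 0.14) and *Itga2b*, a platelet chain (-0.06, SE 0.23), were at or near 0.

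Gene trap replicate 2 was low for the family as a whole. It was the lowest tumor for 15 of 36 members (41.7%), against 21.8% of all tested genes. Its median deviation from the median of the other 9 tumors was -0.31 on the log2 scale over the members, with 31 of 36 below, and 0.01 over all tested genes. Members are long genes, with exons of 2.77 to 18.6 kb and a median of 7.06 kb against 3.37 kb for all tested genes. Over the 11959 tested genes in the same length range the median deviation of that tumor was 0.01. That range takes in much of the table and was not matched to the median length of the members. The part of gene length in the low values of this tumor was not tested. By class the deviation from the other 9 tumors was -0.34 for basal, -0.29 for leukocyte, -0.32 for vascular and -0.25 for other chains, and no member was more than 2 fold below all other tumors.

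Gene trap replicates 4 and 5 had member medians of -0.12 and -0.13 on the same measure, and the other 7 tumors lay between 0.006 and 0.07. In replicate 4 the leukocyte chains were lowest (-0.33) with the basal chains at -0.18 and the vascular chains at 0.08. The plot of deviations by tumor shows this pattern.

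**Figure D4:**
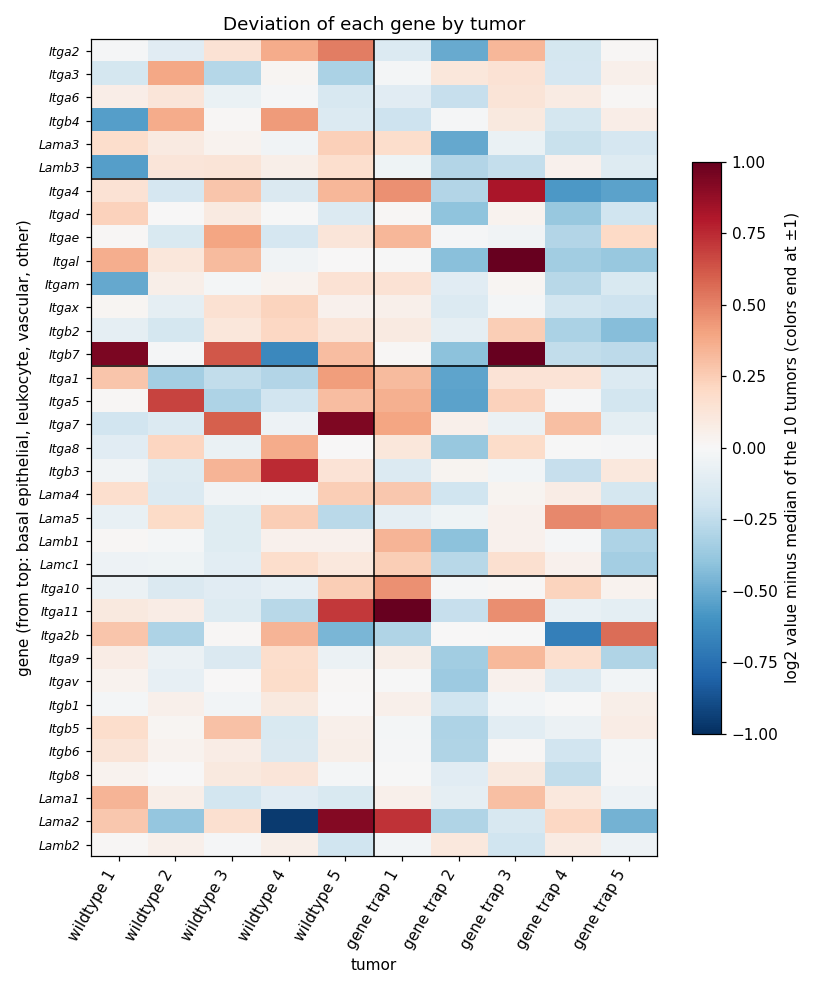
The 35 members drawn (rows, grouped by chain class) in each tumor (columns), as log2(value + 1) minus the median of the 10 tumors, with red above and blue below and colors ending at ±1. The column of gene trap replicate 2 is mostly blue, and *Itgal*, *Itgb7* and *Itga4* are red in gene trap replicate 3.

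Chains that form 1 protein were then compared across the 10 tumors, to see whether partners vary together. In all, 18 relations were computed, 12 between partner chains, 3 between a chain and a marker and 3 across classes, with permutation p-values adjusted over the 18 by Benjamini-Hochberg. All 12 partner pairs had a positive Pearson r, and 4 of 12 had an adjusted p under 0.05 (2 of 12 by Spearman's rho). Not all stayed positive without gene trap replicate 2, where *Lama3* and *Lamb3* had r = -0.04. Of the other relations, 1 of 3 with a marker and 0 of 3 across classes had an adjusted p under 0.05. The share over all gene pairs was not computed, so these counts do not show that partners vary together more than other genes.

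The closest pair was *Lamb1* and *Lamc1*, the β and γ chains shared by the α4 and α5 laminins of vessels. They had r = 0.92 (permutation p = 0.000110, adjusted 0.00198) and rho = 0.90 (permutation p = 0.000830, adjusted 0.0107). Without the 2 tumors farthest from the median of *Lamb1*, r was 0.93. *Lama4* and *Lamb1* had r = 0.82 (permutation p = 0.00245, adjusted 0.0220) and rho = 0.89 (permutation p = 0.00119, adjusted 0.0107), and 0.75 without the 2 farthest tumors. Without gene trap replicate 2 the adjusted p was 0.0100 for *Lamb1* and *Lamc1*, and 0.0521 for *Lama4* and *Lamb1*. With any 1 tumor left out it reached at most 0.0131 and 0.0861. *Lama4* and *Lamc1* had r = 0.73 (permutation p = 0.0180, adjusted 0.0536) and rho = 0.71 (permutation p = 0.0263, adjusted 0.0703).

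Among leukocyte chains, *Itgax* and *Itgb2* had r = 0.82 (permutation p = 0.00381, adjusted 0.0229) and rho = 0.77 (permutation p = 0.0129, adjusted 0.0670), with 0.72 without the 2 farthest tumors. *Itga4* and *Itgb7* had r = 0.78 (permutation p = 0.00591, adjusted 0.0266) and rho = 0.71 (permutation p = 0.0273, adjusted 0.0703). This r was 0.60 without the 2 farthest tumors, of which one was gene trap replicate 3. With any 1 tumor left out the adjusted p reached 0.0650 for *Itgax* and *Itgb2* and 0.191 for *Itga4* and *Itgb7*, and without gene trap replicate 2 it was 0.0460 and 0.0531. *Itgal* and *Itgb2* had r = 0.63 and *Itgam* and *Itgb2* r = 0.52, with adjusted permutation p-values of 0.104 and 0.188. *Itgae* and *Itgb7* had r = 0.17 (adjusted permutation p = 0.719).

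The basal pairs shown here were among the loosest. Basal pairs with the member whose values are not reported are left out. *Itga6* and *Itgb4*, the chains of the hemidesmosome integrin, had r = 0.15 (adjusted permutation p = 0.719). *Lama3* and *Lamb3* had r = 0.22, and neither pair had an adjusted p under 0.05. Whether the laminin and basal pairs differ in r was not tested.

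With the markers, *Itgb4* and *Krt14*, a basal keratin, had r = 0.75 (permutation p = 0.00923, adjusted 0.0332) and rho = 0.76 (permutation p = 0.0149, adjusted 0.0670), and 0.67 without the 2 farthest tumors. Its adjusted p was 0.0521 (r = 0.78) without gene trap replicate 2, and with any 1 tumor left out it reached 0.0861. *Lama4* and *Pecam1*, of endothelium, had r = 0.72 (adjusted permutation p = 0.0536) and 0.45 without the 2 farthest tumors, and *Itgb2* and *Ptprc*, the pan-leukocyte marker, r = 0.55 (adjusted permutation p = 0.158). Across classes r was -0.60 for *Itgb4* and *Lama4* (adjusted permutation p = 0.124), 0.15 for *Itgb4* and *Itgb2* and 0.41 for *Itgb2* and *Lama4*, with no adjusted p under 0.05. All these values come from 10 tumors and take in both groups. With single tumors left out, between 1 and 5 of the 12 partner pairs were called, with 2 without gene trap replicate 2, 2 without gene trap replicate 4 and 1, *Lamb1* and *Lamc1*, without gene trap replicate 5. With group means subtracted, *Lamb1* and *Lamc1* had r = 0.92 and *Itgb4* and *Krt14* r = 0.77.

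**Figure D5:**
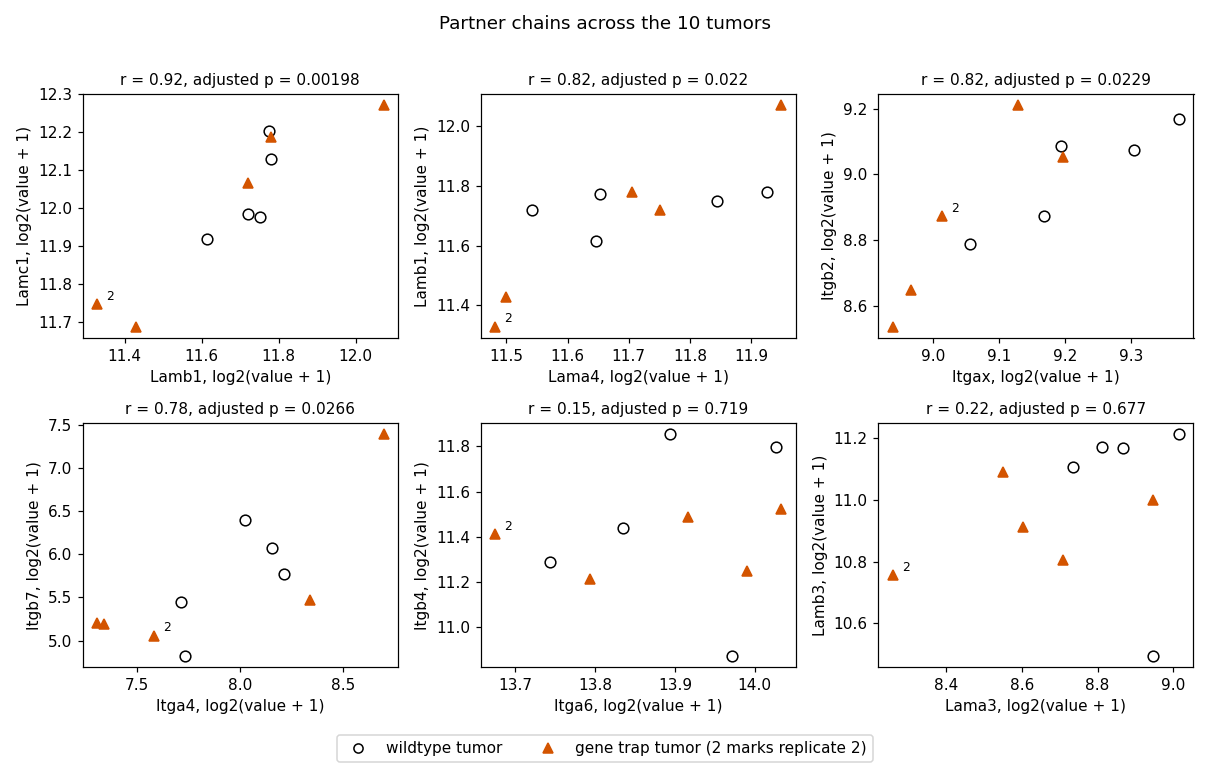
Each panel plots log2(value + 1) of 1 chain against that of its partner in the 10 tumors, with open circles for wildtype and triangles for gene trap tumors and the number 2 beside gene trap replicate 2. *Lamb1* and *Lamc1* lie close to a line (r = 0.92), and *Itga6* and *Itgb4* are scattered (r = 0.15).

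The proteins that integrins and laminins work with were examined last. Of 54 ligands, basement membrane proteins, other receptors and intracellular adaptors, 53 were tested and *Madcam1* was not analysed here. None was called, 0 had an unadjusted p under 0.05 (background 2.28%), 38 were lower and 15 higher, and the median log2 fold change was -0.05. Over all tested genes 48.6% were lower. With single tumors left out, from 31 of 53 (without gene trap replicate 5) to 43 of 53 (without gene trap replicate 3) were lower. The median then ran from -0.07 (without wildtype replicate 1) to -0.02 (without wildtype replicate 4). By role, 14 of 19 ligands and basement membrane proteins, 6 of 8 other receptors and hemidesmosome proteins and 18 of 26 adaptors were lower.

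The smallest p among the lower genes belonged to *Lims1*, which encodes the adaptor PINCH that binds integrin-linked kinase, at -0.18 (SE 0.09; limma unadjusted p = 0.0763). *Fermt2* (kindlin-2, an integrin activator) followed at -0.13 (SE 0.09), *Col17a1* (the hemidesmosome collagen) at -0.29 (SE 0.19), *Sdc1* (a heparan sulfate receptor) at -0.14 (SE 0.09) and *Thbs1* (thrombospondin-1, a matrix ligand) at -0.23 (SE 0.18). Among the higher genes the smallest p belonged to *Tnc* (tenascin-C) at 0.31 (SE 0.22; limma unadjusted p = 0.192). It was followed by *Fermt1* (kindlin-1 of epithelium) at 0.15 (SE 0.12), *Plec* (plectin, the hemidesmosome linker) at 0.16 (SE 0.13), *Sharpin* (an integrin inhibitor) at 0.07 (SE 0.09) and *Kank2* (a talin-binding protein) at 0.06 (SE 0.10).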

How the data were processed

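Total RNA of primary mammary tumors was sequenced from stranded total RNA libraries. The deposited values are a normalized signal, fractional values per gene from which depth cannot be recovered. The study's methods name median ratio scaling for RNA-seq aligned to a human genome, and how this mouse table was scaled is not given in the sources used here. The submitters' processing notes name Partek, STAR 2.7.8a, DESeq2 and mm39. The table has 16 columns, of which 10 carry a name that fits 1 labelled tumor, and the remaining 6 were not used. The labels name 16 tumors, 8 in each group. Of these, 5 in each group had a column matched by name, and the rest were left out. Symbols were found for 22899 (97.0%) of 23609 gene IDs.

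Values were analyzed as log2(value + 1). Genes with a mean of at least 10 were fitted with limma 3.58.1 (R 4.3.3), with the variance trend and Benjamini-Hochberg adjustment over all 21034 tested genes. The calculation was tested on simulated data. Correlations used 100000 permutations (scipy 1.17.1, Python 3.11.15), and exact permutation was used for 9 tumors. Levels per kb used exon lengths of GENCODE mouse release 21. Figures were drawn with matplotlib 3.10.9.

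Members, chain classes, marker and partner lists were chosen with earlier results of these data known. Genes named are *Resf1*, all members, the markers shown beside a class, and the 5 partners with the smallest p in each direction. Values of 1 member, which stays in the counts and medians, are not reported here. The labels do not say that each tumor came from a separate animal, so p-values measure the spread between tumors. Replicate numbers are shared between groups but do not pair animals. The alternatives tried were other pseudocounts, filters and scalings, weights per tumor, no variance trend, a replicate block, each tumor left out, rank correlation and, added after seeing the data, a correction for exon length.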

Additional observations from a re-analysis of the deposited data

Results flagged for a closer look

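Of 74 groups of 5 tumors (the 36 members and *Resf1*, in 2 groups), 5 held a tumor far from the other 4 by Dixon's test, where chance alone would give about 3.7. In gene trap replicate 3 *Itgal* was 236, and the remaining gene trap tumors had 75.7 to 101. *Itgb7* was 167 in the same tumor, against 32.2 to 43.3. *Itga10* was 80.1 in wildtype replicate 5, against 61.1 to 64.9. *Lamb2* was 3846 in the same tumor, against 4382 to 4600.0. *Lamb3* was 1439 in wildtype replicate 1, against 2205 to 2373.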

How the results depend on the processing

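With 5 tumors in each group and an unknown depth, small changes cannot be told from none. Under every alternative run 0 genes were called by limma, with 305 to 692 at an unadjusted p under 0.05, and 17 of 36 members kept their direction throughout. Weights per tumor gave 19 of 36 members lower in place of 30, and the log2 fold changes that turned positive were *Itga4* 0.0010, *Itga5* 0.042, *Itga6* 0.029, *Itga9* 0.057, *Itgae* 0.0023, *Itgam* 0.0045, *Itgb7* 0.16, *Lama2* 0.10, *Lama4* 0.010, *Lamb1* 0.026, *Lamc1* 0.013. *Itga1* was -0.0064 after columns were rescaled to the same total, which moved the median of all genes from 0.005 to -0.02, and *Lamb2* was 0.0059 after quantile normalization. The causes were not tested. An unadjusted limma p under 0.05, which no member had as reported, was reached by *Lama3* with exon length correction and, with 1 tumor left out, by *Lama3*, *Itga2*, *Itga3*, *Itgal*, *Itgax*, *Itgb3*, *Itgb5* and *Lamb3*. With single tumors left out, the log2 fold changes that crossed 0 ran over *Itga1* -0.061 to 0.15, *Itga11* -0.080 to 0.29, *Itga2b* -0.22 to 0.092, *Itga4* -0.32 to 0.022, *Itga5* -0.23 to 0.014, *Itga6* -0.051 to 0.039, *Itga7* -0.22 to 0.062, *Itga9* -0.10 to 0.064, *Itgae* -0.075 to 0.086, *Itgam* -0.13 to 0.036, *Itgb1* -0.063 to 0.0016, *Itgb4* -0.22 to 0.028, *Itgb7* -0.47 to 0.14, *Lama2* -0.24 to 0.23, *Lama4* -0.11 to 0.0055, *Lamb1* -0.16 to 0.022, *Lamb2* -0.046 to 0.044, *Lamc1* -0.12 to 0.025. The correlations that crossed 0 ran over *Itga6* and *Itgb4* -0.044 to 0.43, *Lama3* and *Lamb3* -0.037 to 0.70, *Itgb4* and *Itgb2* -0.062 to 0.30. The count of partner pairs called was 4, and it was 2 by Spearman, 7 after rescaling to the same total and 1 to 5 with a tumor left out. Tumors that share a replicate number in the 2 groups did not deviate together (correlations -0.16 to 0.15, mean -0.0098). With the replicate number as a block limma called 0 genes, with 426 at an unadjusted p under 0.05, and the call of every member was as without it. Each number occurs once in each group, so this block cannot change a log2 fold change or its direction.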
